A study of Mus musculus with 16 samples.

Results

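The livers of mice kept under chronic phase advance (ADV-condition) were compared with those of mice kept under a fixed light-dark cycle (LD-condition). All liver libraries of the series entered, 4 ADV and 4 LD, which is 8 of its 16 libraries. Of the 32989 genes in the liver table, the 11661 with a mean above 0.5 FPKM (fragments per kilobase of exon, scaled to the library total) over these 8 libraries were tested. The mice were male C57BL/6J, aged 97 weeks, and each library came from the snap-frozen liver of 1 mouse. ADV mice had received an 8-h advance of the light cycle every 4 days for 85 weeks, while LD mice had spent the same 85 weeks in the fixed cycle. Livers were taken in a single window, timed from the last onset of light, so that a shifted phase of a daily rhythm and a shifted mean level cannot be told apart here. Poly(A) RNA was sequenced by 2 providers, and which library came from which provider was not given in the sources used here, so that provider and light condition cannot be told apart either. In whole liver, fewer cells of a type and less RNA per cell cannot be told apart.

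Hepatocytes carry out most of the work of the liver. They store glucose as glycogen and release it, burn and build fatty acids, turn cholesterol into bile acids, convert ammonia to urea, oxidise foreign compounds and secrete most proteins of the plasma. These tasks are divided along the lobule, since hepatocytes near the portal vein favour gluconeogenesis and urea synthesis and those near the central vein favour glutamine synthesis and the cytochrome P450 enzymes. Around them lie the bile ducts, sinusoidal endothelium, Kupffer cells (the resident macrophages) and stellate cells, and many hepatocyte genes rise and fall over the day with feeding and with the clock.

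The libraries held about 21092500 to 24285100 fragments on genes, and 1 fragment on a gene of 1 kb was worth 0.0380 to 0.0440 FPKM. All 10 hepatocyte markers stood at 127 FPKM or more in every liver, led by albumin (Alb) with 52061, 44947, 48099 and 41459 FPKM in the LD livers and 48471, 42997, 43057 and 45555 FPKM in the ADV livers. A94 stood apart from the other 7 livers: its mean correlation with them, over the log2 values of the genes, was 0.930, where the other livers had 0.970 to 0.976. In A94, 885 genes exceeded each of the other livers by more than 2-fold, against 26 in A75 and 1 to 8 in each of the remaining 6. A75 held the highest mean log2 level of the tested bile duct and pancreas markers. The pancreas mean rests on 2 tested genes, and 1 of them, Ctrb1, reached a mean of 0.5 FPKM only through A75. The summed FPKM of all 8 pancreas markers was highest in L63 (18.6, against 14.2 in A75). Results are therefore also given without A94 and, in an alternative chosen after the data were seen, without A75 and A94. Throughout, values are listed in the order L63, L65, L86, L104 for LD and A75, A91, A94, A115 for ADV, and fold changes are differences of mean log2(FPKM + 0.1), ADV minus LD, with SE from limma.

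One gene passed an adjusted p of 0.05 by limma, 0.00858% of the genes tested. It was Col27a1, which encodes a fibrillar collagen chain and lies at chr4:63215412-63334991 (+ strand) of mm10. Col27a1 had 8.14, 9.85, 7.84 and 10.1 FPKM in the LD livers and 2.86, 3.02, 2.74 and 3.41 FPKM in the ADV livers. Every ADV value lay under every LD value, and the level fell (log2 fold change -1.54, SE 0.12, adjusted p = 0.0045). By unadjusted p under 0.05, 995 genes were higher in ADV (8.53%) and 401 were lower (3.44%). Every ADV liver lay above every LD liver in 784 genes (6.72%) and below every LD liver in 239 genes (2.05%). These shares are the background for the counts below. For any gene whose groups do not overlap, the two-sided exact permutation test over the 70 assignments of 4 of 8 livers gives p = 0.029, the smallest it can give. The balance of directions depended on scaling. Of the genes with p under 0.05, 71.3% were higher with the FPKM as deposited, 50.1% (777 up, 775 down) once libraries were put on a median-ratio scale, and 39.4% (600 up, 922 down) after quantile normalisation. Over the genes tested, the median log2 fold change was correspondingly 0.08, 0.00 and -0.03, and list medians are read against 0.08. Of all genes tested, 63.3% were higher with the FPKM as deposited and 50.6% on the median-ratio scale, and counts of higher members are read against these shares. Values without A94 are read against a median of 0.01 and 52.4% of all genes higher, and values without A75 and A94 against 0.03 and 55.7%. The median of all genes was 0.11 without A75, 0.10 without A91 and 0.08 without A115. With no minimum level, the median over the 19420 genes above 0 FPKM in at least 1 liver was 0.096. The share of those genes that was higher was not computed, so list counts with no minimum level have no matched share.

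Besides Col27a1, the genes with the smallest p included several outside the hepatocyte programmes. Mustn1, a small protein of muscle and skeletal tissue, had 1.56, 1.97, 2.25 and 1.87 FPKM in the LD livers and 6.50, 3.73, 6.67 and 6.41 FPKM in the ADV livers (log2 fold change 1.53, SE 0.20, adjusted p = 0.15). Prkca, a protein kinase C, had 0.656, 0.588, 0.592 and 0.552 FPKM in the LD livers and 1.27, 1.40, 1.84 and 1.58 FPKM in the ADV livers (log2 fold change 1.21, SE 0.18, adjusted p = 0.18). In both genes every ADV liver was above every LD liver. Cald1, which encodes the actin-binding caldesmon, had 36.8, 33.9, 33.0 and 34.5 FPKM in the LD livers and 47.8, 50.0, 53.2 and 49.0 FPKM in the ADV livers (log2 fold change 0.53). Anp32a, a nuclear phosphatase inhibitor, had 36.7, 37.9, 38.1 and 37.4 FPKM in the LD livers and 49.4, 52.4, 56.3 and 57.9 FPKM in the ADV livers (log2 fold change 0.52). Nostrin, a trafficking protein of endothelial nitric oxide synthase, had 6.36, 7.199, 6.87 and 6.75 FPKM in the LD livers and 10.99, 9.51, 9.67 and 11.1 FPKM in the ADV livers (log2 fold change 0.59). In Cald1, Anp32a and Nostrin the ADV livers lay close together and all above the LD livers, A94 included. The groups were equally separate for Colec10, a secreted collectin, with 7.34, 9.79, 7.95 and 7.75 FPKM against 12.2, 12.9, 14.1 and 15.7 FPKM (log2 fold change 0.74), and for Capn2, a calpain protease, with 9.16, 9.71, 8.21 and 8.79 FPKM against 13.2, 12.1, 14.0 and 15.3 FPKM (log2 fold change 0.60). Adjusted p by limma was 0.18 to 0.20 for Cald1, Anp32a, Nostrin, Colec10 and Capn2, so none passed the threshold. On the lower side stood Smarca2, an ATPase of the SWI/SNF chromatin remodelling complex, with 19.2, 19.1, 20.6 and 18.1 FPKM against 11.3, 13.2, 15.2 and 12.2 FPKM (log2 fold change -0.57, adjusted p = 0.21).

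The enzymes that store glucose and make it anew were lower on average in A75, A94 and A115. The mean of the list was -0.33, -0.15 and -0.32 in these livers and 0.05 in A91, against -0.04 to 0.04 in the LD livers. Of 29 genes of glycogen and glucose metabolism, 20 were lower and 9 higher, 5 were lower and 2 higher at p under 0.05 (background 3.44% and 8.53%), and none passed the adjusted threshold. The median log2 fold change was -0.16, against 0.08 for all genes, and it was -0.24 after median-ratio scaling. It was -0.28 without A91, -0.18 without A94, -0.10 without A75, -0.11 without A115 and -0.05 without A75 and A94. Gys2, the liver isoform of glycogen synthase at chr6:142422613-142473109, had 146, 119.5, 85.9 and 90.9 FPKM in the LD livers and 52.9, 58.2, 39.0 and 44.3 FPKM in the ADV livers. The ADV livers were all under the LD livers, with the highest of them at 58.2 and the lowest LD liver at 85.9 (log2 fold change -1.17, SE 0.19, adjusted p = 0.18 by limma). Pck1, the cytosolic enzyme that commits carbon to gluconeogenesis, had 985, 825, 1329.8 and 905 FPKM in the LD livers and 763, 662, 645 and 555 FPKM in the ADV livers. Here too the groups did not overlap, although A75 and L65 lay near each other (log2 fold change -0.61, SE 0.17, adjusted p = 0.29). Fbp1, the next control point of gluconeogenesis, had 489, 560.0, 548 and 545 FPKM in the LD livers and 333, 505, 408 and 369.7 FPKM in the ADV livers, with A91 inside the LD range (log2 fold change -0.42, SE 0.14, adjusted p = 0.33). Pklr, the liver pyruvate kinase of glycolysis, had 107, 93.4, 67.5 and 108 FPKM in the LD livers and 31.3, 73.7, 80.1 and 31.6 FPKM in the ADV livers. A75 and A115 were far under the LD range, while A91 and A94 were inside it (log2 fold change -0.91, SE 0.33, adjusted p = 0.37).

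**Figure D1:**
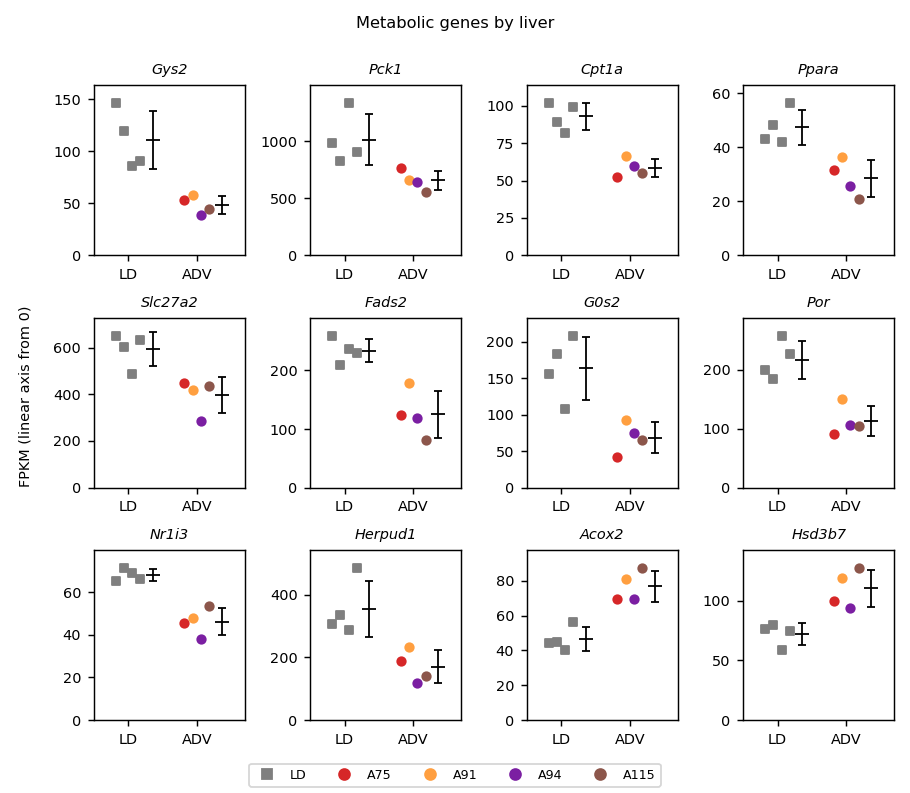
FPKM of 12 metabolic genes in each liver (linear axis from 0), LD as grey squares and ADV as coloured circles, with the mean and SD of each group (n = 4). In 10 genes from Gys2 to Herpud1 every ADV liver lies under every LD liver, and in Acox2 and Hsd3b7 every ADV liver lies above.

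Fatty acid oxidation showed the most one-sided list among the metabolic groups. Of 38 genes, 34 were lower and 4 higher in ADV. At p under 0.05, 11 were lower and 0 higher by limma, in 5 the groups did not overlap, and 0 passed the adjusted threshold. The median log2 fold change was -0.26 (all genes 0.08). It was -0.18 without A94 and -0.10 without A75 and A94, and A94 held the lowest mean of the list by a wide margin (-0.73 on the log2 scale against the LD mean, where the other ADV livers had -0.29, -0.06 and -0.18 in the order A75, A91, A115). The LD livers had -0.01, -0.07, -0.04 and 0.12, so A91 was inside their range. The mean of the hepatocyte markers was also lowest in A94, -0.34 against -0.04 to 0.11 in the other 7 livers, and its part in the list was not tested.

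Cpt1a, the carnitine palmitoyltransferase that admits long-chain fatty acids to mitochondria, lies at chr19:3323301-3385733 and had 102, 89.4, 81.7 and 99.0 FPKM in the LD livers and 52.6, 66.8, 59.5 and 55.1 FPKM in the ADV livers. The highest ADV liver, A91, stayed under the lowest LD liver, and the difference was as large without A94 (log2 fold change -0.68, with all livers -0.67, SE 0.11, adjusted p = 0.18). Ppara, the nuclear receptor that drives fatty acid oxidation genes, had 42.9, 48.1, 41.9 and 56.2 FPKM in the LD livers and 31.5, 36.4, 25.5 and 20.6 FPKM in the ADV livers. A115 was the lowest and A91 the highest ADV liver, all under the LD range (log2 fold change -0.75, SE 0.18, adjusted p = 0.28). Slc27a2, a very-long-chain acyl-CoA synthetase and fatty acid transporter, had 651, 604, 487 and 635 FPKM in the LD livers and 451, 419, 284 and 435 FPKM in the ADV livers. A94 was lowest, yet the other ADV livers were also under every LD liver (log2 fold change -0.59, SE 0.17, adjusted p = 0.3, without A94 -0.44). Fabp1, the main fatty acid-binding protein of hepatocytes, had 9457, 8148, 5247 and 6484 FPKM in the LD livers and 5090.0, 5923, 2809 and 4229 FPKM in the ADV livers, with A91 above L86 (log2 fold change -0.72, SE 0.26, adjusted p = 0.37). Angptl4, a secreted inhibitor of lipoprotein lipase and target of Ppara, had 66.2, 53.4, 96.4 and 95.2 FPKM in the LD livers and 53.2, 44.0, 26.6 and 48.9 FPKM in the ADV livers. Its groups lay side by side without overlap, A75 just under L65 (log2 fold change -0.85, SE 0.26, adjusted p = 0.31). The Ppara target Cyp4a14 had the opposite order, with 94.4, 116, 161 and 134 FPKM against 278, 252, 52.0 and 495 FPKM, and A94 was under every LD liver while the other ADV livers were above (log2 fold change 0.73, without A94 1.39).

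Genes that build fat were lower on average in 3 of the 4 ADV livers. Of 25 lipogenesis genes tested of 26 listed, 19 were lower and 6 higher, 6 were lower and 1 higher at p under 0.05, and the median log2 fold change was -0.28 (all genes 0.08). It stayed at -0.29 without A94 and -0.25 without A75 and A94. The mean of the list was above the LD mean in A91 (0.18) and under it in A75 (-0.34), A94 (-0.29) and A115 (-0.48). Fads2, the delta-6 desaturase of polyunsaturated fatty acid synthesis, had 259, 209.7, 236 and 231 FPKM in the LD livers and 124, 178, 119 and 80.6 FPKM in the ADV livers. All ADV livers lay under all LD livers, A115 lowest and A91 highest (log2 fold change -0.95, SE 0.21, adjusted p = 0.24). Lpin2, a phosphatidate phosphatase, had 58.3, 55.3, 62.3 and 63.2 FPKM in the LD livers and 45.6, 50.1, 36.1 and 24.6 FPKM in the ADV livers, again without overlap (log2 fold change -0.66, SE 0.20, adjusted p = 0.31). Elovl6, which elongates palmitate, had 47.4, 36.7, 29.7 and 39.7 FPKM in the LD livers and 13.2, 31.1, 24.8 and 9.82 FPKM in the ADV livers, with A91 just above L86 (log2 fold change -1.08, SE 0.34, adjusted p = 0.32). Scd1, the abundant stearoyl-CoA desaturase, ranged from 722 to 2090.4 FPKM in LD and from 349 to 2416 FPKM in ADV, wider within each group than between them. Its paralogue Scd2, little expressed by hepatocytes, had 1.01, 1.38, 1.31 and 0.918 FPKM against 2.80, 1.29, 6.18 and 2.27 FPKM.

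Among 21 lipid droplet genes tested, 12 were lower and 9 higher, with 3 lower and 2 higher at p under 0.05. The median of -0.11 (all genes 0.08) became -0.05 without A75, -0.04 without A115 and 0.04 without A75 and A94, so the list has no stable direction. With no minimum level, 11 of the 23 in the table were higher and 12 lower. G0s2, an inhibitor of the triglyceride lipase ATGL, had 155, 184, 108 and 208 FPKM in the LD livers and 42.1, 92.2, 74.9 and 65.1 FPKM in the ADV livers. A75 was lowest, and A91, the highest ADV liver, remained under the lowest LD liver, L86 (log2 fold change -1.27, SE 0.26, adjusted p = 0.22). Fitm2, which promotes droplet formation at the endoplasmic reticulum, had 22.9, 23.7, 22.2 and 28.4 FPKM in the LD livers and 10.8, 15.5, 16.3 and 17.9 FPKM in the ADV livers, without overlap (log2 fold change -0.70, SE 0.16, adjusted p = 0.27). Plin3, a coat protein of small droplets, had the reverse order with 7.06, 8.57, 7.30 and 7.59 FPKM in the LD livers and 10.7, 9.86, 10.4 and 8.65 FPKM in the ADV livers (log2 fold change 0.37, SE 0.11, adjusted p = 0.3). Plin2, the main droplet coat of hepatocytes, had 122 ± 14.9 FPKM in LD and 109 ± 16.1 FPKM in ADV (SD, n = 4), a difference within the spread (exact permutation p = 0.257, two-sided).

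Cholesterol synthesis set A94 against the other ADV livers. Of 25 genes, 17 were higher and 8 lower (13 and 12 after median-ratio scaling), with 1 in each direction at p under 0.05, and 19 of the 25 had their highest value in A94. The list median of 0.14 on the log2 scale (0.08 for all genes) became -0.08 without A94. It was 0.24 without A75, 0.09 without A91 and 0.28 without A115. Hmgcs1, the synthase at the entry of the pathway, had 26.0, 23.8, 23.1 and 16.3 FPKM in the LD livers and 35.7, 38.9, 89.0 and 30.1 FPKM in the ADV livers. All ADV livers exceeded all LD livers, but A94 stood well above the rest (log2 fold change 0.996, SE 0.31, adjusted p = 0.32, without A94 0.66). Sqle, the squalene epoxidase, had 15.7, 15.6, 11.9 and 9.36 FPKM against 19.2, 15.6, 52.4 and 15.2 FPKM, with A91 and A115 inside the LD range. Ebp, a sterol isomerase late in the pathway, had 103.6, 111, 105 and 104.1 FPKM in the LD livers and 95.5, 91.5, 81.5 and 86.3 FPKM in the ADV livers, every ADV liver slightly lower (log2 fold change -0.26, SE 0.09, adjusted p = 0.35).

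In bile acid synthesis and transport, 20 of 28 genes were lower and 8 higher, with 2 in each direction at p under 0.05. The median of -0.13 moved to -0.07 without A94 and to -0.22 without A91. Acox2, the peroxisomal oxidase that shortens the bile acid side chain, had 44.2, 45.1, 40.4 and 56.3 FPKM in the LD livers and 69.4, 81.0, 69.9 and 87.2 FPKM in the ADV livers. The groups did not overlap, and the difference grew without A94 (log2 fold change 0.73, SE 0.13, adjusted p = 0.2, without A94 0.77). Hsd3b7, which acts just after the initial hydroxylation of cholesterol, also had higher values with 76.3, 79.6, 58.3 and 74.7 FPKM in the LD livers and 100.1, 119, 94.3 and 127 FPKM in the ADV livers (log2 fold change 0.61, SE 0.14, adjusted p = 0.26). By contrast Cyp8b1, the sterol 12-alpha-hydroxylase that directs synthesis to cholic acid, had 69.4, 54.8, 35.2 and 62.4 FPKM in the LD livers and 13.4, 29.4, 7.10 and 53.1 FPKM in the ADV livers. Its lowest value was in A94 and the next in A75, while A115 reached the LD range (log2 fold change -1.45, SE 0.54, adjusted p = 0.37, without A75 and A94 -0.44). Cyp46a1, a cholesterol 24-hydroxylase, was low in level and had 1.97, 1.81, 1.899 and 1.80 FPKM against 0.630, 1.121, 0.554 and 0.728 FPKM (log2 fold change -1.24, SE 0.21, adjusted p = 0.18). Cyp7a1, the rate-limiting enzyme of the classical pathway, was looked up after the values were seen. It had 63.6, 27.5, 26.0 and 25.1 FPKM in the LD livers and 11.6, 44.0, 23.1 and 135 FPKM in the ADV livers, so that the ADV livers held both the lowest and the highest level of all 8 (exact permutation p = 1, two-sided).

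The cytochrome P450 system was described by 49 tested genes of 55 in the table, of which 26 were lower and 23 higher. At p under 0.05, 7 were lower and 2 higher, and the median of -0.14 was -0.02 without A94 and -0.07 to -0.10 without 1 of the other ADV livers. Over all 55, with no minimum level, 28 were lower and 27 higher. Por, the reductase that passes electrons to all microsomal P450 enzymes, lies at chr5:135689145-135735326 and had 200.3, 184, 258 and 226 FPKM in the LD livers and 91.6, 151, 105 and 105 FPKM in the ADV livers. The ADV livers lay under the LD livers with A91 highest among them, and the mean was 217 ± 32.1 FPKM in LD and 113 ± 25.7 FPKM in ADV (SD, n = 4, log2 fold change -0.95, SE 0.17, adjusted p = 0.2). Nr1i3, the constitutive androstane receptor that switches on drug-metabolising genes, had 65.3, 71.3, 69.3 and 66.2 FPKM in the LD livers and 45.7, 48.1, 38.0 and 53.4 FPKM in the ADV livers. These groups did not overlap either (log2 fold change -0.56, SE 0.11, adjusted p = 0.21). Among the enzymes themselves, Cyp2e1, the ethanol-inducible P450, had 5806, 5198, 4903 and 5082 FPKM in the LD livers and 4184, 4966, 3673 and 3732 FPKM in the ADV livers, with only A91 reaching the LD range (log2 fold change -0.35, SE 0.14, adjusted p = 0.39). Cyp4f15, a leukotriene and fatty acid hydroxylase, had 43.0, 42.6, 46.8 and 44.7 FPKM in the LD livers and 30.0, 38.8, 26.8 and 34.6 FPKM in the ADV livers without overlap (log2 fold change -0.46, SE 0.12, adjusted p = 0.29). Cyp2c38 was higher in every ADV liver with 11.2, 11.96, 16.4 and 14.1 FPKM in the LD livers and 19.4, 25.7, 16.9 and 23.1 FPKM in the ADV livers, A94 only just (log2 fold change 0.66, SE 0.16, adjusted p = 0.29). The abundant Cyp3a11 had 1566, 1857, 1758 and 1774 FPKM in the LD livers and 2879, 3802, 1183 and 2685 FPKM in the ADV livers: A94 was under every LD liver and the other 3 ADV livers were above every LD liver (log2 fold change 0.48, without A94 0.83, exact permutation p = 0.20, two-sided). Cyp2 and Cyp3 genes lie in clusters of close relatives, and reads that match several of them can have been lost to the filter on mapping quality.

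Of 43 conjugating enzymes, 22 were higher and 21 lower (15 and 28 after median-ratio scaling), with 2 in each direction at p under 0.05, of which Sult1e1, a sulfotransferase, reached a mean of 0.5 FPKM only through the ADV livers. The median of 0.01 was -0.06 after median-ratio scaling and 0.10 without A94. Gstt2, a theta-class glutathione transferase, had 50.4, 50.4, 45.6 and 35.9 FPKM in the LD livers and 21.7, 32.6, 26.5 and 22.9 FPKM in the ADV livers, all ADV livers lower (log2 fold change -0.82, SE 0.16, adjusted p = 0.21). Gstm1, of the mu class, had 563, 598, 938 and 554 FPKM in the LD livers and 769, 1002, 1321 and 903 FPKM in the ADV livers, with L86 inside the ADV range (log2 fold change 0.60, SE 0.21, adjusted p = 0.36).

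Urea cycle and amino acid genes were lower in most members by small amounts. Of 59 genes, 45 were lower and 14 higher, with 2 lower and 4 higher at p under 0.05. The median of -0.14 (all genes 0.08) was -0.25 without A91, -0.04 without A94 and 0.02 without A75 and A94. Cbs, which condenses homocysteine with serine, had 62.0, 64.2, 85.3 and 72.1 FPKM in the LD livers and 117, 109, 68.3 and 113 FPKM in the ADV livers, A94 inside the LD range and the others above it (log2 fold change 0.50, SE 0.18, adjusted p = 0.37, without A94 0.68). Fah, the last enzyme of tyrosine breakdown, had 298, 306, 290.4 and 310.0 FPKM in the LD livers and 237, 288, 236 and 248 FPKM in the ADV livers, with all ADV livers lower (log2 fold change -0.26, SE 0.10, adjusted p = 0.38). Cps1, which commits ammonia to the urea cycle, had 651 ± 46.8 FPKM in LD and 596 ± 159.9 FPKM in ADV (SD, n = 4), a difference within the spread (exact permutation p = 0.686, two-sided).

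Male-biased liver genes, which depend on the pulsed growth hormone pattern of males, were lower in 20 of 27 members and higher in 7. At p under 0.05, 4 were lower and 0 higher by limma, none passed the adjusted threshold, and the median log2 fold change was -0.41 (all genes 0.08). It was -0.23 without A94, -0.24 without A91 and -0.21 without A75 and A94. A115 was at the level of the LD livers (0.06 above the LD mean), while A75 (-0.21), A91 (-0.61) and A94 (-0.70) were under it, and L86 (-0.35) was the lowest LD liver. Of 26 female-biased genes in the table, 16 were tested, of which 9 were higher and 7 lower with a median of 0.09, and 0 higher and 2 lower at p under 0.05 by limma. That median was 0.05 without A94, 0.03 without A91, 0.18 without A75 and 0.17 without A115. Prom1 was tested only because its ADV values raised its mean above 0.5 FPKM. Over all 26, with no minimum level, 17 were higher and 9 lower with a median of 0.18. Fmo2, a flavin monooxygenase counted in this list, had 11.2, 10.8, 13.03 and 13.6 FPKM in the LD livers and 7.75, 8.32, 5.75 and 8.11 FPKM in the ADV livers, every ADV liver lower (log2 fold change -0.70, SE 0.14, adjusted p = 0.21).

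The major urinary proteins, pheromone carriers that male mice secrete in large amounts, make up part of the male-biased list. The table held 13, of which 10 were tested, 9 lower and 1 higher, with 3 lower and 0 higher at p under 0.05 by limma and none past the adjusted threshold. The median of -0.43 was -0.28 without A94 and -0.09 without A75 and A94. Mup7 had 1885, 1035, 968 and 1231 FPKM in the LD livers and 607, 410.2, 283 and 879.7 FPKM in the ADV livers, without overlap (log2 fold change -1.31, SE 0.34, adjusted p = 0.29). Mup3, the most abundant, had 8704, 8653, 5827 and 7021 FPKM in the LD livers and 4836, 6027, 3216 and 5495 FPKM in the ADV livers, with A91 above L86 (log2 fold change -0.65, SE 0.22, adjusted p = 0.36), while Mup20 (darcin) had 1481, 2283, 1590.2 and 1752 FPKM against 1261, 1706, 2327 and 2496 FPKM. These genes are near-identical copies in 1 cluster of chromosome 4, so reads that match several copies can have been lost to the filter on mapping quality. The summed FPKM of all 13, which shares that limit, ranged from 8825 to 12730 in LD and from 6387 to 9457 in ADV.

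Genes of the unfolded protein response, which raises the folding and degradation capacity of the endoplasmic reticulum, were lower in 22 of 28 members and higher in 6, with 5 lower and 0 higher at p under 0.05 by limma. A94 differed from the other ADV livers: the mean of the list was 0.45 above the LD mean in A94, and -0.42, -0.23 and -0.57 in A75, A91 and A115. The LD livers had -0.16, 0.09, -0.23 and 0.30, so A91 was at the level of L86, and L104 was nearest to A94. Without A94, 27 of 28 were lower and the median moved from -0.13 to -0.38, whereas it was -0.03 without A75 and -0.04 without A115. Herpud1, a component of endoplasmic reticulum-associated degradation, had 306, 336, 287 and 485 FPKM in the LD livers and 189, 234, 118 and 141 FPKM in the ADV livers. All ADV livers, A94 lowest, were under all LD livers (log2 fold change -1.07, SE 0.23, adjusted p = 0.24). Syvn1, the ubiquitin ligase of the same machinery, had 26.7, 33.2, 20.4 and 49.1 FPKM in the LD livers and 11.8, 17.2, 26.1 and 14.9 FPKM in the ADV livers, with A94 inside the LD range (log2 fold change -0.87, SE 0.30, adjusted p = 0.35, without A94 -1.08). Dnajb9, a co-chaperone of BiP, had 86.7, 83.8, 45.7 and 78.3 FPKM in the LD livers and 42.1, 44.8, 62.9 and 34.0 FPKM in the ADV livers, with L86 the lowest LD liver (log2 fold change -0.67, SE 0.24, adjusted p = 0.36). BiP itself (Hspa5) had 510.0, 642, 398 and 796 FPKM against 359, 484, 702 and 371 FPKM, and the groups overlapped (exact permutation p = 0.343, two-sided).

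**Figure D2:**
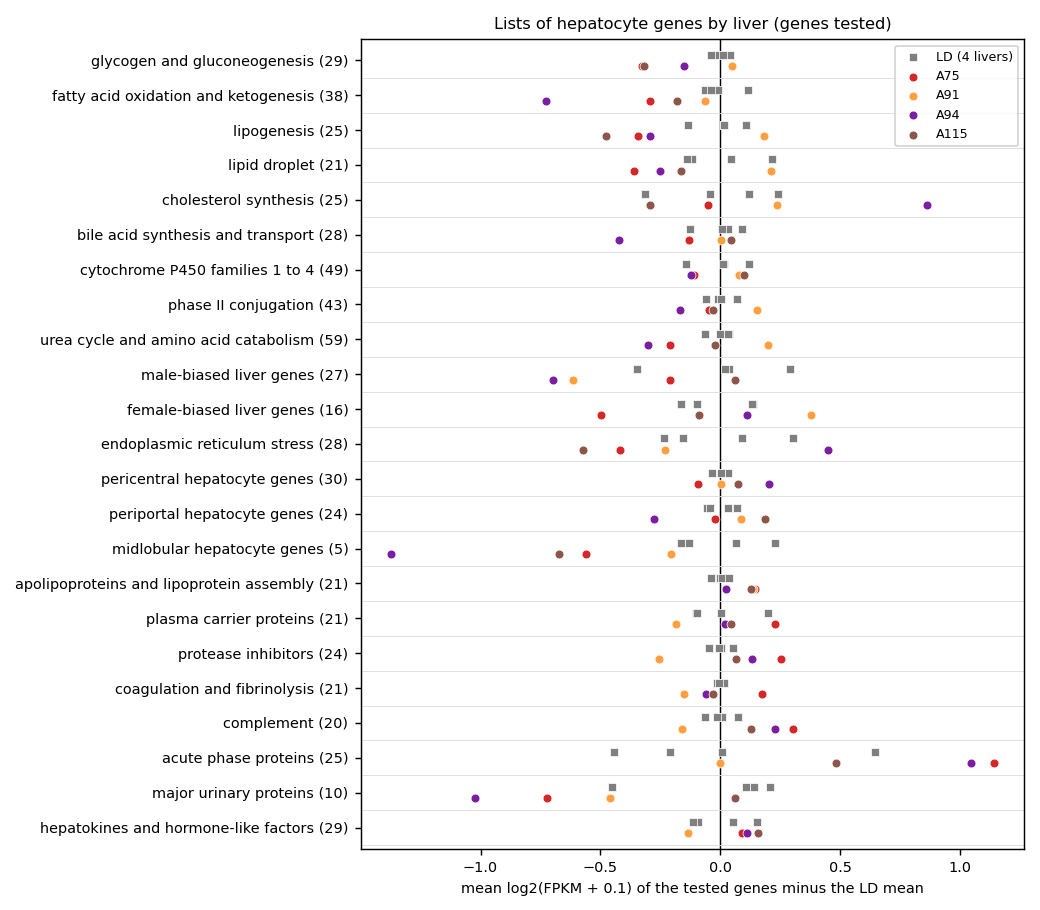
Mean log2(FPKM + 0.1) of the tested genes of 23 lists of hepatocyte functions, zones and secreted proteins, minus the LD mean, in each liver (LD as grey squares, ADV as coloured circles, number of genes in brackets). For fatty acid oxidation A75, A94 and A115 lie under every LD liver and A91 lies among them. Cholesterol synthesis sets A94 apart on the high side. Endoplasmic reticulum stress is also highest in A94, with L104 next, and the acute phase list is highest in A75 and A94.

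Zonation was examined with lists of pericentral, midlobular and periportal genes. Of 30 pericentral genes, 17 were higher and 13 lower with a median of 0.09, and of 24 periportal genes, 9 were higher and 15 lower with a median of -0.10. The pericentral median was 0.04 without A94 and 0.01 without A91. Against the 0.08 of all genes the pericentral list did not stand out. The periportal median was 0.02 without A94, and 17 of the 24 were then higher, so that the lower periportal median rested on A94. At p under 0.05, 1 pericentral gene was higher and 3 lower, and 5 periportal genes were higher and 2 lower. Axin2, Lgr5, Glul and Cyp2f2, the usual landmarks of the zones, were looked up after the values were seen. Glul, glutamine synthetase of the innermost pericentral cells, had 251, 233, 258 and 242 FPKM in the LD livers and 261, 198, 375 and 302 FPKM in the ADV livers. The LD livers lay close together and A91 and A94 marked both extremes (log2 fold change 0.17, without A94 0.02). Cyp2f2, the periportal P450, had 487, 511, 443 and 603 FPKM in the LD livers and 424, 397, 432 and 547 FPKM in the ADV livers (log2 fold change -0.19, exact permutation p = 0.257, two-sided). The Wnt targets Axin2 and Lgr5 had log2 fold changes of 0.32 and 0.16, and their groups overlapped.

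Single zonal genes varied more than the lists. Cyp2a5, a pericentral coumarin hydroxylase, had 795, 855, 769 and 581 FPKM in the LD livers and 195, 610.2, 780.5 and 183 FPKM in the ADV livers. A75 and A115 were far under the LD range, and A91 and A94 were near it or inside (log2 fold change -1.04, SE 0.45, adjusted p = 0.41). Ctsc, a lysosomal protease in the periportal list that macrophages also express, had 10.7, 9.72, 14.4 and 11.5 FPKM in the LD livers and 19.6, 13.1, 21.6 and 16.8 FPKM in the ADV livers, with A91 under L86 (log2 fold change 0.60, SE 0.18, adjusted p = 0.31). The 5 midlobular genes had lower mean log2 values in ADV, 2 of them at p under 0.05, with a median of -0.79 that was -0.55 without A94 (4 lower, 1 higher) and -0.46 without A115. Igfbp2, an insulin-like growth factor-binding protein of this list, had 299, 278, 274 and 262 FPKM in the LD livers and 273, 132, 84.0 and 222 FPKM in the ADV livers. A94 and A91 were well under the LD range and A75 was inside it (log2 fold change -0.79, SE 0.32, adjusted p = 0.39). Hamp2, an iron-regulatory hepcidin, had 25.0, 17.9, 15.9 and 10.2 FPKM against 9.60, 52.2, 3.34 and 2.04 FPKM, with A91 above and the other ADV livers under every LD liver, and its paralogue Hamp had 388 ± 85.6 FPKM in LD and 401 ± 164 FPKM in ADV (SD, n = 4), a log2 fold change of -0.04 that was 0.28 without A94.

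**Figure D3:**
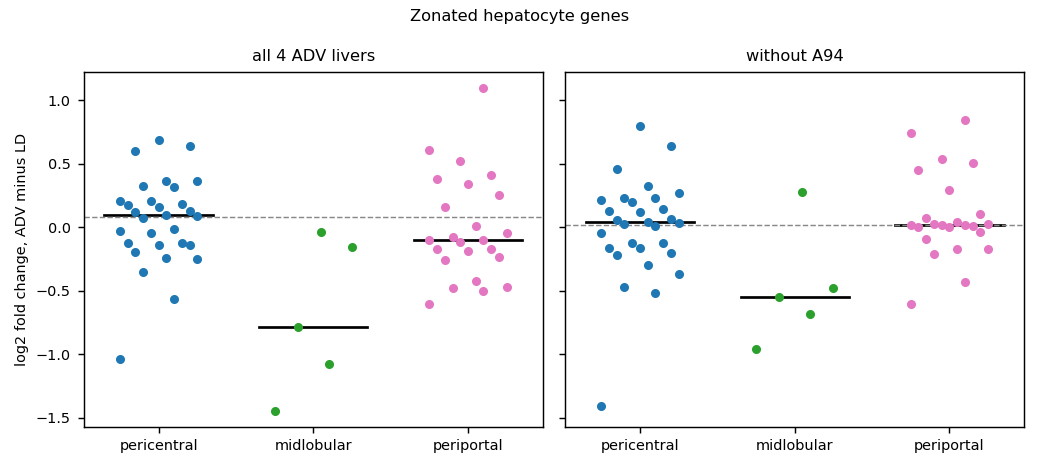
Log2 fold change (ADV minus LD) of each gene of the pericentral (30), midlobular (5) and periportal (24) lists with all 4 ADV livers and without A94, with bars at the list medians and a dashed line at the median of all genes tested. The periportal median lies at -0.10 with all livers and at 0.02 without A94, while the midlobular median stays lowest at -0.79 and -0.55.

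Most genes of abundant plasma proteins were at similar levels in both groups. Among 21 apolipoprotein and lipoprotein assembly genes, 12 were higher and 9 lower (9 and 12 after median-ratio scaling), with 3 higher and 0 lower at p under 0.05 by limma, none past the adjusted threshold, and a median of 0.04 (-0.03 after median-ratio scaling). Apoa4, an apolipoprotein that the liver makes in response to fat load, had 27.4, 23.8, 22.2 and 55.9 FPKM in the LD livers and 81.9, 60.5, 62.5 and 99.3 FPKM in the ADV livers. All ADV livers were above all LD livers, with L104 near A91 and A94 (log2 fold change 1.31, SE 0.29, adjusted p = 0.24, without A94 1.39). Apof and Apon, neighbouring genes on chromosome 10, had 242, 205, 213 and 229 FPKM against 289, 243, 312 and 287 FPKM for Apof and 118, 111, 113 and 137 FPKM against 166, 129.6, 154 and 184 FPKM for Apon (log2 fold changes 0.34 and 0.39). Every ADV liver was above every LD liver for Apof, and A91 was under L104 for Apon. Apoa1, Apoa2, Apob and Apoe had log2 fold changes of -0.09, -0.01, 0.04 and -0.07 and overlapping groups.

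Of 21 carrier protein genes, 11 were higher and 10 lower (9 and 12 after median-ratio scaling), with 2 in each direction at p under 0.05. Cp (ceruloplasmin, the copper carrier) had 211, 188, 226 and 226 FPKM in the LD livers and 352, 229.6, 331 and 309 FPKM in the ADV livers. The ADV livers were all above, A91 by little (log2 fold change 0.51, SE 0.14, adjusted p = 0.3). Igfbp4, another insulin-like growth factor-binding protein, had 639, 684, 689 and 633 FPKM in the LD livers and 408, 527, 622 and 466 FPKM in the ADV livers, all ADV livers lower, A94 by little (log2 fold change -0.40, SE 0.14, adjusted p = 0.35). In 21 coagulation genes the counts were 8 higher and 13 lower, with 1 higher and 2 lower at p under 0.05. Cpb2, the fibrinolysis inhibitor TAFI, had 254, 279, 265 and 259.9 FPKM in the LD livers and 432, 286, 349 and 319 FPKM in the ADV livers, with A75 highest and A91 just above the LD livers (log2 fold change 0.37, SE 0.13, adjusted p = 0.36). F11, coagulation factor XI, had 29.8, 30.2, 13.3 and 20.9 FPKM in the LD livers and 11.3, 12.6, 19.3 and 10.1 FPKM in the ADV livers. A94 was the highest ADV liver and L86 the lowest LD liver (log2 fold change -0.79, SE 0.29, adjusted p = 0.37, without A94 -0.98). The 3 fibrinogen chains were highest in A75, and their log2 fold changes were 0.12, 0.22 and 0.30 for Fga, Fgb and Fgg with overlapping groups. Among 20 complement genes 14 were higher and 6 lower (11 and 9 after median-ratio scaling), with 2 in each direction at p under 0.05. C4bp, a regulator of the classical pathway, had 326, 323, 309.8 and 297 FPKM in the LD livers and 421, 346, 503 and 341 FPKM in the ADV livers (log2 fold change 0.34, SE 0.14, adjusted p = 0.38). C8b, part of the membrane attack complex, had 156, 161, 126 and 180.2 FPKM in the LD livers and 143, 95.2, 93.5 and 136 FPKM in the ADV livers, with A75 and A115 inside the LD range (log2 fold change -0.43, SE 0.17, adjusted p = 0.39). The protease inhibitors had 13 genes higher and 11 lower of 24 (11 and 13 after median-ratio scaling) and 0 in either direction at p under 0.05 by limma.

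The acute phase proteins formed the secreted list that was most often higher. These are plasma proteins whose synthesis hepatocytes raise under cytokines such as interleukin-6. Of 25 genes, 22 were higher and 3 lower in ADV, 8 were higher at p under 0.05 (background 8.53%) and 0 lower by limma, in 4 the groups did not overlap (background 6.72%), and none passed the adjusted threshold. The median log2 fold change was 0.51 against 0.08 for all genes, 0.44 after median-ratio scaling, 0.40 without A94 and 0.25 without A75 and A94. The mean of the list relative to the LD mean was -0.44, -0.21, 0.65 and 0.01 in the LD livers and 1.14, 0.00, 1.04 and 0.48 in the ADV livers, so that A91 was like LD and L86 lay above A91 and A115. The mean of the Kupffer cell markers was 0.50, 0.42, 1.80 and 0.60 above the LD mean in the same ADV livers, and its part in this list was not tested.

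Orm2, one of the orosomucoids (acid glycoproteins of plasma), had the widest difference of the list. It had 14.9, 27.4, 64.1 and 20.9 FPKM in the LD livers and 203, 29.7, 714 and 139 FPKM in the ADV livers. A94, A75 and A115 were above every LD liver and A91 was inside their range (log2 fold change 2.52, SE 0.84, adjusted p = 0.35, without A94 1.79). Orm3 had 5.57, 6.85, 14.0 and 9.10 FPKM in the LD livers and 23.7, 14.2, 32.8 and 17.5 FPKM in the ADV livers. Here all ADV livers were above all LD livers, A91 only just above L86 (log2 fold change 1.32, SE 0.32, adjusted p = 0.29). Orm1, the most abundant, had 747, 934, 1109 and 841 FPKM in the LD livers and 2005, 897, 2287 and 1508 FPKM in the ADV livers, with A91 inside the LD range (log2 fold change 0.81, SE 0.27, adjusted p = 0.35). The 3 copies are closely related, and reads that match more than 1 of them can have been lost in the same way. Their cluster lies directly beyond Col27a1, on the same strand of chromosome 4, with 9564 bases between the annotated end of Col27a1 and the start of Orm1 (chr4:63344556-63348163), then Orm3 (chr4:63356162-63359511) and Orm2 (chr4:63362449-63365877). The gene that fell and the cluster with higher levels are thus neighbours, which was noticed after their values were seen. Ambp, on the other side of Col27a1, had a log2 fold change of 0.16 and Akna, beyond Orm2, one of 0.59 (adjusted p = 0.66 and 0.65 by limma). An antisense transcript of mean 0.275 FPKM overlaps the end of Col27a1 and the cluster, and whether the counting used strand is not given in the sources used here.

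Promoters of Orm3, Saa3 and Apcs, the serum amyloid P component, are shown because these were the acute phase genes with an entry in the reference table whose groups did not overlap, and that of Orm2 because of its difference. Apcs was added after the matches were seen. The 250 bases before the start, from RefSeq on GRCm38.p6, run 5′ to 3′ on the strand of the gene, at chr4:63362199-63362448 (+) for Orm2, chr4:63355908-63356157 (+) for Orm3, chr7:46715677-46715926 (-) for Saa3 and chr1:172895055-172895304 (-) for Apcs. Capitals mark TTGCNNAA, a form of the motif of C/EBP factors, which act in the acute phase response, searched on both strands.
Orm2: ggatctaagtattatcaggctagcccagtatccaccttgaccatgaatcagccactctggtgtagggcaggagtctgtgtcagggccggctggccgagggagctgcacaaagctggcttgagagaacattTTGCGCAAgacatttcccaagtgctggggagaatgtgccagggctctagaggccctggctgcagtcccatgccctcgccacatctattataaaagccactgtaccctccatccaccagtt
Orm3: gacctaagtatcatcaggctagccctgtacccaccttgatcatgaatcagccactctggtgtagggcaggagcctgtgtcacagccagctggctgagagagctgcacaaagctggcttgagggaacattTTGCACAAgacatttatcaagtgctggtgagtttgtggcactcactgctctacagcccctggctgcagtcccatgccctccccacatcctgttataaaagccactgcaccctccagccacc
Saa3: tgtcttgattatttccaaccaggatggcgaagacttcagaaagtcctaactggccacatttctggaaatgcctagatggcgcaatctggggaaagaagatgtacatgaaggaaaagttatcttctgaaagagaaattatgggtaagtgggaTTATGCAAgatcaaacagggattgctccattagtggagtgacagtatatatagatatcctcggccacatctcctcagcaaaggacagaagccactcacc
Apcs: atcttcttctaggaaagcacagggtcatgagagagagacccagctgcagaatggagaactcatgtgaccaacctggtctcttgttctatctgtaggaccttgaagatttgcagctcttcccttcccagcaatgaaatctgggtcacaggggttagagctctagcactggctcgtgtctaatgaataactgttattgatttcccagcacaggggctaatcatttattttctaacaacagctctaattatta
The match starts at -120 from the start site in Orm2, -121 in Orm3 and -99 in Saa3, and the Apcs window held none. The Orm2 and Orm3 windows were identical at 218 of 255 aligned positions (85.5%). Of the acute phase genes with an entry, 9 of 19 held a match in at least 1 promoter (47.4%), against 2930 of 27025 genes in the table (10.8%) and 3142 of 32851 promoters (9.56%). Those with a match include Orm2 and Orm3, and also Saa1 and Saa2, with matches at -182 and -183. Such close relatives were counted as separate genes. Serpina3n and Itih4 held none. Other lists of liver and blood cell genes also had high shares, with 37.5% of 16 carrier protein genes, 36.8% of 19 coagulation genes, 33.3% of 21 female-biased genes and 55.6% of 9 neutrophil markers. A match is a description of these letters and says nothing about binding in these livers. Orm1 had no entry.

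Outside the orosomucoids, Apcs, the main acute phase pentraxin of mice, had 91.3, 91.9, 113 and 65.8 FPKM in the LD livers and 291, 114, 318 and 176 FPKM in the ADV livers. Every ADV liver lay above every LD liver, although A91 was close to L86 (log2 fold change 1.22, SE 0.31, adjusted p = 0.29, without A75 and A94 0.67). Saa3, a serum amyloid A of macrophages and other cells, had 5.04, 4.66, 6.57 and 6.70 FPKM in the LD livers and 8.11, 9.52, 12.6 and 7.93 FPKM in the ADV livers, all ADV livers higher (log2 fold change 0.72, SE 0.18, adjusted p = 0.29). Haptoglobin (Hp), an abundant member, had 1971, 1899.7, 2966 and 2158 FPKM in the LD livers and 3900.3, 1818, 3642 and 3052 FPKM in the ADV livers. Its groups overlapped through A91 and L86 (log2 fold change 0.43, SE 0.25, adjusted p = 0.5). Itih4 and Serpina3n, a plasma protein of the inter-alpha-inhibitor family and a protease inhibitor, had log2 fold changes of 0.36 and 0.46 with overlapping groups.

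**Figure D4:**
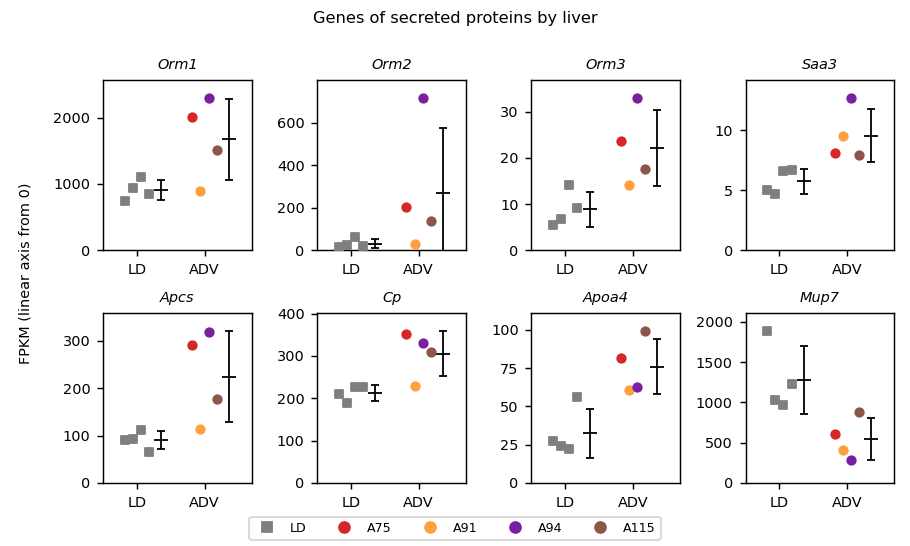
FPKM of 8 genes of secreted proteins in each liver (linear axis from 0), with the mean and SD of each group (n = 4). Orm3, Saa3, Apcs, Cp and Apoa4 are higher in every ADV liver and Mup7 is lower in every ADV liver, while A91 falls among the LD livers for Orm1 and Orm2.

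Hepatokines and hormone-like factors showed no common direction, with 13 of 29 higher and 16 lower and 4 in each direction at p under 0.05. Hgf, hepatocyte growth factor made by stellate cells, had 3.64, 4.28, 3.15 and 3.92 FPKM in the LD livers and 6.28, 4.61, 4.71 and 5.36 FPKM in the ADV livers, all ADV livers higher (log2 fold change 0.47, SE 0.14, adjusted p = 0.31). Hgfac, the hepatocyte protease that activates it, had 57.1, 64.6, 68.6 and 59.9 FPKM in the LD livers and 37.3, 48.1, 59.5 and 38.7 FPKM in the ADV livers, with A94 the only ADV liver inside the LD range (log2 fold change -0.47, SE 0.15, adjusted p = 0.34). Vegfa, the growth factor for endothelium, had 19.8, 21.6, 22.6 and 22.6 FPKM in the LD livers and 13.7, 17.7, 17.1 and 17.4 FPKM in the ADV livers. All ADV livers were lower, A75 most (log2 fold change -0.40, SE 0.11, adjusted p = 0.29).

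Among the cell type markers, those of hepatocytes had 4 of 10 higher and 6 lower (2 and 8 after median-ratio scaling, median -0.03 and -0.10, summed FPKM 59297 to 72837 in LD and 60977 to 70415 in ADV). Hnf4a, a master regulator of hepatocyte identity, had 178, 186, 232 and 231 FPKM in the LD livers and 149, 146, 127 and 199 FPKM in the ADV livers, with A115 inside the LD range (log2 fold change -0.42, SE 0.16, adjusted p = 0.37). All 12 Kupffer cell markers were higher, 8 at p under 0.05, and in 8 the groups did not overlap (background 8.53% and 6.72%). The median was 0.84, and 0.42 without A94, where all 12 were still higher. Their summed FPKM was 185 to 246 in LD and 256 to 886 in ADV, and without A94 the ADV mean was 1.33 times the LD mean. Vsig4, a complement receptor of Kupffer cells, had 17.8, 19.7, 23.9 and 20.8 FPKM in the LD livers and 36.003, 25.8, 75.1 and 29.9 FPKM in the ADV livers. A94 was far above the rest, and the remaining ADV livers were above the LD range as well (log2 fold change 0.89, SE 0.29, adjusted p = 0.34, without A94 0.57). Folr2, a folate receptor of resident macrophages, had 5.49, 5.35, 6.52 and 5.84 FPKM in the LD livers and 10.005, 7.74, 23.6 and 9.21 FPKM in the ADV livers (log2 fold change 0.97, SE 0.30, adjusted p = 0.32). Cd163, the haptoglobin-haemoglobin scavenger receptor, had 1.37, 1.34, 1.122 and 2.22 FPKM in the LD livers and 2.02, 4.02, 3.47 and 6.68 FPKM in the ADV livers, with A115 rather than A94 highest and A75 inside the LD range (log2 fold change 1.29, SE 0.33, adjusted p = 0.29, without A94 1.32). Marco and Timd4 overlapped between the groups.

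Markers of monocyte-derived macrophages, which enter the liver from the blood, were higher in all 12 members, with and without A94, when no minimum level was set. The median was 0.87, 0.58 without A94 and 0.31 without A75 and A94. Of the 12, 9 reached 0.5 FPKM, but 2 of these, Ly6c2 and Chil3, only through the ADV livers, A94 above all. The mean of the 9 was 0.89, 0.29, 3.01 and 0.59 above the LD mean in the ADV livers and -0.14, -0.13, 0.30 and -0.03 in the LD livers, so A91 was at the level of L86. The summed FPKM of all 12 was 65.2 to 114 in LD and 98.6 to 261 in ADV. Ccr2, the chemokine receptor of circulating monocytes, had 0.638, 0.594, 0.774 and 0.632 FPKM in the LD livers and 1.33, 1.14, 4.79 and 1.05 FPKM in the ADV livers. All ADV livers were above all LD livers, A94 by far (log2 fold change 1.23, SE 0.42, adjusted p = 0.35, without A94 0.75). S100a4, a calcium-binding protein of macrophages and other cells, had 0.947, 0.736, 1.53 and 1.28 FPKM in the LD livers and 3.32, 1.57, 15.4 and 4.04 FPKM in the ADV livers, with A91 only just above L86 (log2 fold change 1.88, SE 0.57, adjusted p = 0.31, without A94 1.28). The groups did not overlap for Ly6c2 and Lgals3 either.

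Stellate cell markers were higher in 11 of 12, 4 of them at p under 0.05 and without overlap of the groups. Of these 4, Ngfr reached a mean of 0.5 FPKM only through the ADV livers. The median was 0.40, and 0.20 without A94. Summed FPKM was 185 to 200.4 in LD and 233 to 333 in ADV, so every ADV liver exceeded every LD liver, and the ratio of means was 1.42, or 1.32 without A94. Dcn, the matrix proteoglycan decorin, made up most of that sum with 112, 119, 113 and 103.6 FPKM in the LD livers and 182, 147, 212 and 168 FPKM in the ADV livers. All ADV livers were above all LD livers (log2 fold change 0.65, SE 0.12, adjusted p = 0.21, without A75 and A94 0.49). Rgs5, a pericyte regulator of G protein signalling, had 8.29, 8.65, 7.68 and 10.1 FPKM in the LD livers and 11.97, 11.3, 15.6 and 12.5 FPKM in the ADV livers (log2 fold change 0.56, SE 0.13, adjusted p = 0.27). Ngfr, the low-affinity nerve growth factor receptor, had 0.516, 0.364, 0.632 and 0.480 FPKM against 0.716, 0.699, 0.814 and 0.747 FPKM (log2 fold change 0.51, SE 0.23, adjusted p = 0.42). Lrat, which esterifies retinol for storage, had 4.92, 5.74, 6.06 and 4.29 FPKM against 4.94, 6.38, 11.7 and 6.34 FPKM, with A75 inside the LD range (log2 fold change 0.41, SE 0.24, adjusted p = 0.5).

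The duct and smooth muscle markers were high in particular ADV livers. Of 11 cholangiocyte markers, with no minimum level, 7 were higher and 4 lower, with a median of 0.43 that was 0.10 without A75 and A94. Only 7 reached 0.5 FPKM, Epcam and Muc1 through the ADV livers alone. Krt19, a keratin of bile ducts, had 0.638, 1.05, 1.29 and 1.07 FPKM in the LD livers and 14.2, 0.786, 0.815 and 6.31 FPKM in the ADV livers: A75 and A115 were above all other livers and A91 and A94 inside the LD range. Epcam, an adhesion molecule of duct cells, had 0.458, 0.257, 0.473 and 0.398 FPKM against 2.12, 0.411, 1.55 and 0.652 FPKM, highest in A75 and A94. Acta2, smooth muscle actin, had 0.454, 0.412, 0.846 and 0.334 FPKM in the LD livers and 7.89, 0.599, 3.76 and 2.26 FPKM in the ADV livers, with A75 highest and A91 inside the LD range (log2 fold change 2.19, SE 0.64, adjusted p = 0.31). All 11 markers of portal fibroblasts and smooth muscle were higher with no minimum level, with a median of 1.21 that was 0.19 without A75 and A94. Cd24a, a surface protein of duct and progenitor cells, had 1.44, 2.29, 1.78 and 2.12 FPKM in the LD livers and 20.8, 2.57, 16.9 and 3.87 FPKM in the ADV livers, Tspan8, a tetraspanin, had 0.536, 0.459, 0.721 and 0.595 FPKM against 5.67, 0.757, 1.27 and 1.40 FPKM and Ly6d, a lipid-anchored surface protein, had 0.713, 1.92, 1.41 and 1.42 FPKM against 21.2, 1.57, 63.5 and 3.20 FPKM. For Cd24a and Tspan8 every ADV liver was above every LD liver, by much only in A75 and A94 for Cd24a and in A75 for Tspan8. Of 12 sinusoidal endothelium markers 7 were higher (5 after median-ratio scaling), with 0 in either direction at p under 0.05 by limma, and a median of 0.03.

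Summed levels of lymphoid, neutrophil and dendritic markers were highest in A94. Many of these markers reached a mean of 0.5 FPKM only through the ADV livers or stayed under it. Their counts are therefore given over all members in the table, with no minimum level and no matched share over all genes. Summed FPKM of 10 B cell and plasma cell markers was 5.50 to 10.6 in LD, 705 in A94 and 6.27 to 19.1 in the other ADV livers. All 10 were higher, and 9 without A94, with a median of 1.504 and of 0.45 without A94. For 13 T cell and natural killer cell markers the sum was 34.7 in A94 and 2.74 to 5.10 elsewhere. Of the 13, 11 were higher, and 8 without A94 (median 0.76, without A94 0.15). The groups did not overlap for Cd3g and Lck, which had LD means under 0.5 FPKM. Cd3g, a chain of the T cell receptor complex, had 0.643, 0.240, 0.374 and 0.522 FPKM in the LD livers and 0.946, 0.766, 5.47 and 0.700 FPKM in the ADV livers, and Lck, a kinase of T cell signalling, was at 0.325 to 0.465 FPKM in LD and 0.502 to 3.68 FPKM in ADV. The sum of 10 neutrophil markers was 118 in A94 and 5.19 to 17.7 elsewhere, and 8 of the 10 were higher, but 3 without A94. Of 8 dendritic cell markers 7 were higher, but 4 without A94, and A94 was the highest liver for 7. The sum of 10 proliferation markers was 28.9 in A94, 9.60 in A115 and 4.19 to 5.38 in the other livers. These levels moved with the low A94 values of fatty acid oxidation and the high ones of cholesterol synthesis given above, and their part in those results was not tested. Of the 10 erythroid markers, 8 were higher and 2 lower with no minimum level (median 0.12), and 4 and 4 without A94. The lower ones were Car1 and Alas2. Car1, the red cell carbonic anhydrase, had 7.12, 6.53, 6.43 and 6.21 FPKM in the LD livers and 3.14, 4.78, 3.19 and 3.06 FPKM in the ADV livers and Alas2, the erythroid haem synthase, 59.0, 73.1, 53.4 and 63.7 FPKM against 37.4, 57.2, 36.5 and 41.8 FPKM (log2 fold changes -0.90 and -0.54), whereas globin genes overlapped between groups (Hbb-bs 0.28). Adipocyte and pancreas markers checked for adhering tissue. Of 8 pancreas markers 4 were at 0 in every liver, but the protease Ctrb1 stood at 4.73 FPKM in A75 and at 0.0464 or less elsewhere. Cela1, an elastase and the other pancreas marker that reached 0.5 FPKM, had 18.4, 11.9, 8.04 and 11.7 FPKM in the LD livers and 9.24, 8.72, 8.73 and 7.28 FPKM in the ADV livers, highest in L63 and inside the LD range in A75 (log2 fold change -0.50, SE 0.22, adjusted p = 0.41). Adipoq, the fat cell hormone adiponectin, was 2.10 FPKM in A75 and 0.105 or less elsewhere. Whether these cells bear on the values of A75 was not tested.

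**Figure D5:**
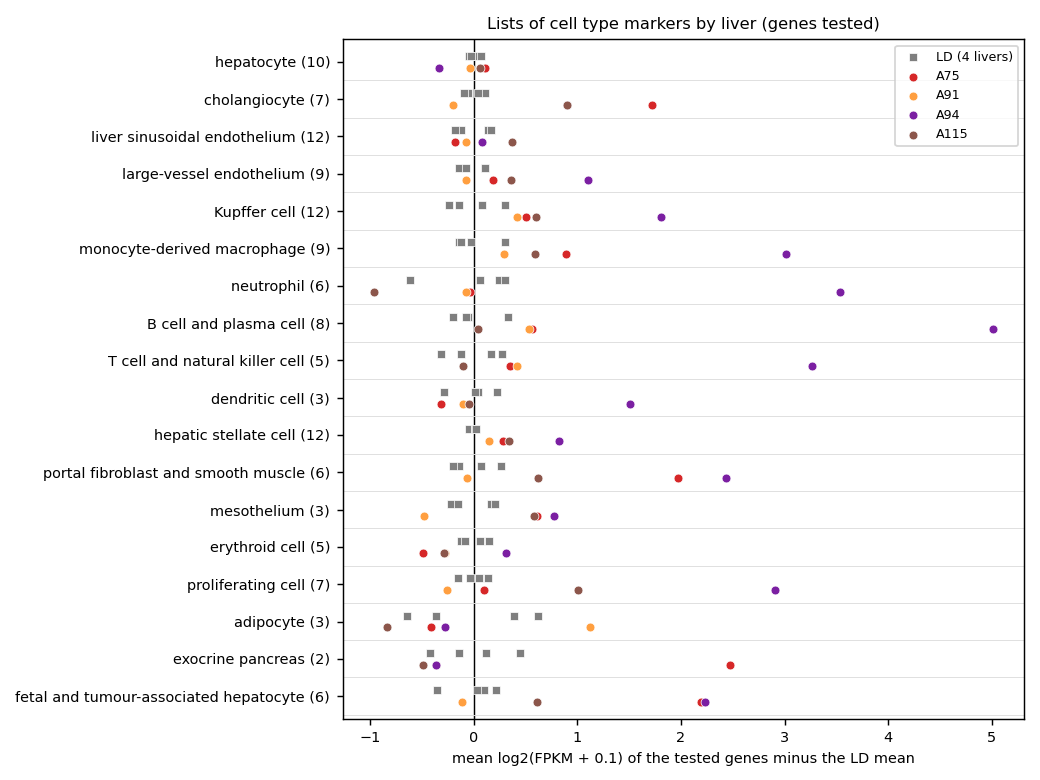
Mean log2(FPKM + 0.1) of the tested markers of 18 cell types, some of which reached 0.5 FPKM only through ADV livers, minus the LD mean, in each liver (LD as grey squares, ADV as coloured circles, number of genes in brackets). A94 exceeds 3 for neutrophil, B and plasma, T and natural killer and monocyte-derived macrophage markers. A75 leads for cholangiocyte and pancreas markers, the latter 2 genes, of which Ctrb1 reached 0.5 FPKM only through A75. Kupffer, stellate, monocyte-derived macrophage and B and plasma cell markers lie above 0 in all 4 ADV livers.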

How the data were processed

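The authors trimmed reads with Trimmomatic, mapped them to GRCm38/mm10 with STAR (2.5.4b per the submitters' processing notes), removed reads of low mapping quality and counted exonic fragments over UCSC's known canonical gene set in HOMER. The deposited FPKM are per library total, without further scaling between libraries, and every value came out as a whole multiple of 0.5 fragments within 0.01. The kidney table was not used here. Values were taken as log2(FPKM + 0.1) and tested with limma 3.58.1 (trended variance prior, no covariate) in R 4.3.3 on all genes with a mean above 0.5 FPKM, with Benjamini-Hochberg adjustment, after a test on simulated data. Single genes also received the two-sided exact permutation test. Replicates are separate mice. Members and lists were chosen with earlier results of these data known. Named were genes past the adjusted threshold, the 10 smallest p in each direction, in each list up to 4 genes by p and 3 by level, the 10 most abundant genes, defining markers, and the 5 widest gaps of 1 ADV liver above the rest. Glul, Axin2, Lgr5, Cyp2f2 and Cyp7a1 were added after their values were seen. Some genes that the rule names are not reported here. Other pseudocounts, filters, scalings, array weights, limma-voom on recovered fragments and leaving out each liver were alternatives. Promoters were read from RefSeq on GRCm38.p6.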

Additional observations from a re-analysis of the deposited data

Results flagged for a closer look

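In each group of 4 livers, the gap between the most extreme liver and its nearest neighbour was divided by the range of the group, for the named genes, the means of the lists and the mean correlation between livers. The ratio exceeded the 95% critical value of Dixon's test in 31 of 346 groups (8.96%), where chance gives about 5%, so single cases carry little weight, and some of the genes were named for their A94 values. A94 was the liver apart in 17, A91 in 3 and A75 in 3, and an LD liver in 8.

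A94 was lowest of the ADV livers for Slc27a2 (0.845), for Cbs (0.862), for the mean of the apolipoprotein list (0.86) and for its mean correlation with the other livers (0.907). It was highest for the means of the Kupffer cell (0.869), B cell and plasma cell (0.896), T cell and natural killer cell (0.847) and dendritic cell (0.852) markers, and for Ly6c2 (0.969), Lgals3 (0.92), Mzb1 (0.938), Rnase2a (1.0), H19 (0.839), Cd3g (0.862), Lck (0.971), Ccr2 (0.848) and Akna (0.943). A75 was lowest for Vegfa (0.863) and highest for the mean of the exocrine pancreas markers (0.956) and for Ctrb1 (1.0). A91 was highest for Car1 (0.903) and lowest for Mustn1 (0.932) and for the mean of the mesothelium markers (0.85). Among the LD livers L104 was highest for Sult1e1 (0.879), L63 was highest for Apoa1 (0.966) and Cyp7a1 (0.9), and L86 was highest for Gstm1 (0.854), F7 (0.849) and Ambp (0.879) and lowest for Dnajb9 (0.842) and for the mean of the major urinary proteins (0.85).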

How the results depend on the processing

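No paired analysis was possible because the LD and ADV mice carry different numbers. The number of genes past the adjusted threshold was 6 without a filter on low values, 2 with array weights, 1 to 9 when each liver in turn was left out (9 without A91), and 0 by limma without A75 and A94, an alternative chosen after the data were seen, with 781 genes higher and 420 lower at unadjusted p under 0.05. Genes higher at p under 0.05 numbered 600 after quantile normalisation and 635 to 1435 with 1 liver left out. Genes lower numbered 775 after median-ratio scaling, 922 after quantile normalisation, 883 with array weights and 246 to 696 with 1 liver left out (246 without L104, 696 without A94). Genes with every ADV liver higher numbered 446 after quantile normalisation, 934 to 1599 with 1 liver left out and 1500 without A75 and A94, and genes with every ADV liver lower 497 after median-ratio scaling, 623 after quantile normalisation, 284 to 639 and 844 (leaving livers out by itself makes such a pattern more frequent). The cause of the other shifts was not tested. Col27a1 passed in 19 of 20 settings, with an adjusted p of 0.0013 to 0.0998, the highest without A75 and A94. Of 2477 fold changes of the 131 genes named in the text under these alternatives, 42 in 20 genes changed sign, all of them genes with an unadjusted p of 0.215 or more. The reversed log2 fold changes were those of Apob (-0.031) after median-ratio scaling, of Apoe (0.045), Apoa1 (0.043), Lgr5 (-0.084) and Apoa2 (0.053) after quantile normalisation, of Cps1 (0.0036), Mup20 (-0.13), H19 (-0.58) and Hamp (0.295) with array weights, and of Retnla (-0.71), Mzb1 (-0.071), Fgb (-0.065), Glul (-0.0078), Ctrb1 (-0.275), Cps1 (0.11), Fga (-0.195), H19 (-0.96), Hamp (0.26), Apoa2 (0.091) and Akna (-0.0066) without A75 and A94. With 1 liver left out, the ranges that crossed 0 were -0.050 to 1.99 for Mzb1, -0.17 to 2.84 for Ighg1, -0.29 to 0.04 for Cps1, -0.75 to 0.98 for H19 and -0.037 to 0.82 for Akna (lowest, or for Cps1 highest, without A94), -0.275 to 1.59 for Ctrb1 and -0.12 to 0.36 for Fga (lowest without A75), -0.86 to 0.072 for Scd1 (highest without A115), -0.10 to 0.0068 for Alb, -0.079 to 0.025 for Apoa2, -0.25 to 0.28 for Hamp, -0.16 to 0.32 for Lgr5, -0.52 to 0.66 for Cyp7a1, -0.043 to 0.21 for Apob, -0.23 to 0.060 for Apoa1 and -0.034 to 0.29 for Mup20. Mustn1 (0.025) passed with array weights, and without A91 so did Cyp46a1 (0.037), Por (0.040), Car1 (0.017) and Mustn1 (0.014), all adjusted p by limma. Of 41 list medians, 17 changed sign under some alternative. With 4 livers a group, differences smaller than the spread between mice were not detectable.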

Other observations

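In each of the 5 genes with the widest gap between 1 ADV liver and the rest, that liver was A94. Ighg1, the constant region of an immunoglobulin heavy chain, had 0.387, 0.288, 1.94 and 0.607 FPKM in the LD livers and 0.383, 1.21, 217 and 0.313 FPKM in the ADV livers. Retnla, a secreted product of alternatively activated macrophages, had 0.0688, 0.137, 0.352 and 0.137 FPKM in the LD livers and 1.26, 0, 65.5 and 0.145 FPKM in the ADV livers. Rnase2a, an eosinophil-type ribonuclease, stood at 6.13 FPKM in A94 and at 0 in the other 7 livers. Mzb1, a chaperone of plasma cells, and immunoglobulin light chain variable segments (listed together as 1 entry) had 33.2 and 293 FPKM in A94 and at most 0.633 and 6.15 FPKM elsewhere. Among the list members, Chil3, a chitinase-like protein of macrophages, had 0.134, 0.159, 0.187 and 0.134 FPKM against 0.615, 0.142, 10.1 and 0.226 FPKM, and Ly6c2, a monocyte surface protein, 0.410, 0.305, 0.477 and 0.333 FPKM against 0.750, 0.841, 22.3 and 0.784 FPKM. H19, an imprinted RNA that is abundant in fetal liver, was 4.25 FPKM in A94 and 0.302 or less elsewhere. These genes were picked for their A94 values and are given as a description. H19 belongs to a list of 10 fetal and tumour-associated hepatocyte markers, as do Cd24a, Tspan8, Ly6d and Prom1. With no minimum level, 8 of the 10 were higher and 2 lower, and 6 and 4 without A94. The list members Afp and Igf2 stayed at or under 0.191 and 0.185 FPKM in every liver.

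Among the list members, Muc1 and Prom1 were highest in A75, and they were picked for these values. Muc1, a mucin of duct epithelium, had 0.329, 0.272, 0.315 and 0.274 FPKM against 5.07, 0.329, 0.531 and 0.752 FPKM, and Prom1, a surface protein of duct and progenitor cells, had 0.198, 0.327, 0.348 and 0.384 FPKM against 3.08, 0.233, 0.213 and 0.881 FPKM. Both were lower in A94 than in A75, and both reached a mean of 0.5 FPKM only through the ADV livers.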
